A study of Mus musculus with 31 samples.

Results

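The comparison described here sets day 3 blood cells against day 3 endothelial cells grown from the same 5 mouse hemangioblast lines. Its members were chosen by the sample titles alone and are 10 of the 31 libraries of the series, 5 of blood and 5 of endothelium, with 1 library of each fate from every line. The parental cells, called eHB for expandable hemangioblasts, divide in culture while doxycycline switches on a set of introduced factors, of which Tal1, Lmo2, Gata2, Sox17 and Mycn are followed here. The source of M5 was embryonic fibroblasts. Fetal liver gave FL10 and FL4. RB4.6.9 and RB3.6.5 were made from embryonic stem (ES) cells. Each line is a separate derivation, and a difference between single lines has no replicate of its own.

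Both fates were grown for 3 days on Matrigel in N2B27 medium without doxycycline, which the eHB cells had received at 2 µg/mL. Blood was kept under 1.5% oxygen with 3 µM CHIR99021, an inhibitor of the kinase GSK3 that turns on Wnt signalling, and with the cytokines SCF, IL-3 and Flt3 ligand at 100 ng/mL. The blood cells were then sorted as positive for both VE-cadherin, an endothelial junction protein, and CD45, the leukocyte surface phosphatase. Endothelial cultures received 20 ng/mL VEGF, 0.25 mM 8-Br-cAMP, 4 µM of the TGF-beta receptor inhibitor SB431542, 20 ng/mL BMP4 and 12.5 ng/mL FGF2, and were not sorted. Medium, oxygen, sorting and fate therefore changed together and cannot be told apart in any difference given here. As eHB cells the ES-derived lines had been kept in these same 5 additives, whereas M5, FL4 and FL10 had been kept in FGF2 alone, so origin and earlier medium cannot be told apart either.

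In the embryo the first blood and the first vessels arise side by side from mesoderm, and some blood forms from endothelium by a transition in which flat, joined cells round up and leave the vessel wall. Endothelial identity rests on VEGF and Tie receptors, adherens junctions, Notch signalling and a basement membrane, under factors of the ETS, SoxF and GATA families. Blood identity rests on factors such as PU.1, Runx1 and Gata1 and on cytokine receptors, and each mature lineage adds its own granules, enzymes or globins.

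The libraries held 9424412 to 26651901 expected counts in blood and 29990385 to 48340524 in endothelium. Levels are the deposited TPM, transcript abundances relative to the whole library, and wherever 5 values are listed they stand in the order RB3.6.5, RB4.6.9, M5, FL4 and FL10. Differences are log2 fold changes of blood over endothelium with their standard error (SE), from edgeR's quasi-likelihood F test paired by line over 5 pairs, with p-values adjusted by Benjamini-Hochberg over 12655 genes and 0.05 as the threshold. "Rose" and "higher" mean a pass with more in blood, and "fell" and "lower" a pass with less.

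Marker genes went with the labels. The summed level of 8 endothelial markers was 192.3 to 477.4 TPM in blood and 5828 to 7923 in endothelium, and that of 6 leukocyte markers was 2576 to 3635 in blood and 49.2 to 191.7 in endothelium. Cdh5, which encodes VE-cadherin, was at 44.6, 65.6, 102, 17.4 and 37.6 TPM in blood and at 2924, 2554, 3102, 2837 and 3031 in endothelium, so blood cells sorted on the protein carried far less of its messenger RNA (log2 fold change -5.57 ± 0.45 SE, adjusted p = 0.000189). In bulk libraries fewer cells of a type and less RNA per cell cannot be told apart. Ptprc, which encodes CD45, was at 16.4, 45.8, 98.8, 81.4 and 102 TPM in blood and at most 0.031 in any endothelial library (12.48 ± 0.52, adjusted p = 4.29e-05). The introduced copies were far below their level in the eHB lines but not absent. The 5 ectopic rows named above summed to 45.55 to 126.3 TPM in blood and 43.04 to 213.8 in endothelium. In the eHB lines the sum was 7262 to 12910. Ectopic Lmo2 alone was at 146.5 TPM in FL10 endothelium and at most 37.6 in the other endothelial libraries. Ectopic Gata2 and Lmo2 did not pass. With DESeq2 ectopic Gata2 was lower in blood (adjusted p 0.0174) and ectopic Lmo2 higher (0.0368). An ectopic row and the endogenous row of the same gene share coding sequence, and the split of reads between them is uncertain.

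A pair of libraries stood apart. Blood from RB3.6.5 was the shallowest library and the highest blood library in red cell markers (11312 TPM, lowest library 295) and in megakaryocyte markers (11457 TPM, lowest 457.5). In the gene lists used below, its globins summed to 23432 TPM, and FL4 blood came next at 3679.5. Its platelet genes summed to 18486 TPM, and RB4.6.9 blood came next at 7651. RB3.6.5 blood also held Lars2, a mitochondrial enzyme gene outside the naming rule and named after its values were seen, at 49087 TPM, against 239 to 901 in endothelium. Endothelium from M5 was the highest endothelial library in leukocyte, red cell (1878 TPM) and megakaryocyte (1535 TPM) markers, which were as low as 2.0 and 58.7 TPM in the others. The part of these marker levels in the results was not tested. The column numbers of the endothelial libraries from RB3.6.5 and RB4.6.9 stand apart from those of the other 8 libraries, with no reason given; in the 3 tissue-derived lines alone 7874 genes passed the test used below.

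**Figure D1:**
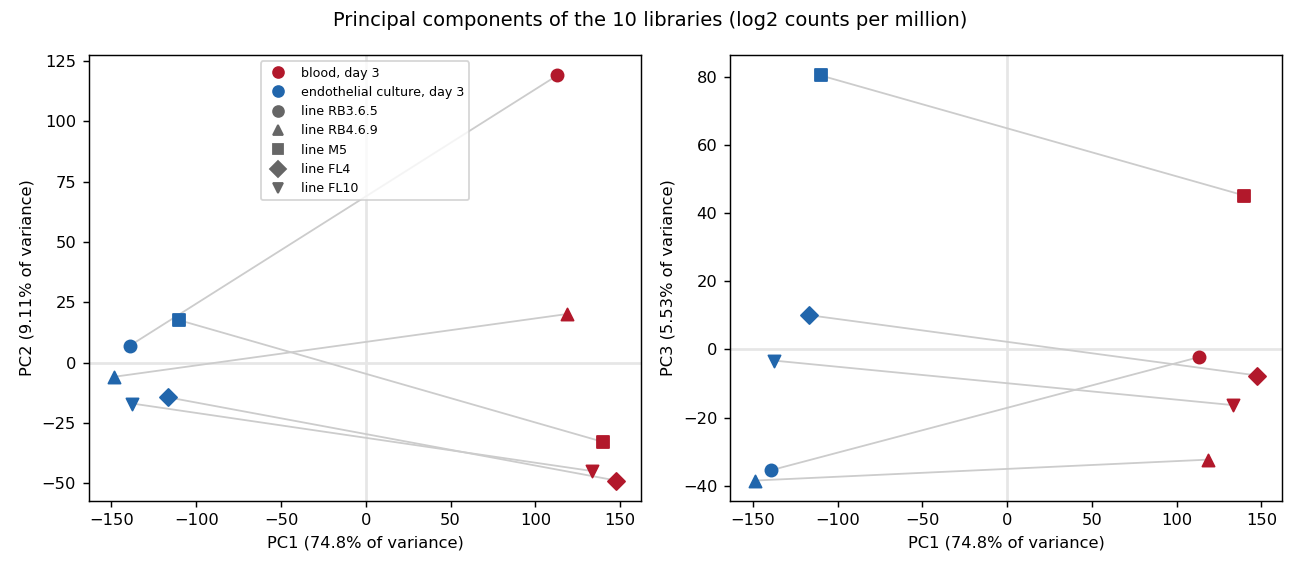
Principal components of log2-scaled counts in the 10 libraries, 1 point per library, with the share of variance on each axis. The first component (74.8% of the variance) separates the fates, the second (9.11%) is highest in blood from RB3.6.5, and the third (5.53%) is highest in endothelium from M5.

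Fate was the largest source of variation, with 74.8% of the variance on the component that separated the groups. Of 12655 genes tested, 7603 (60.1%) passed, 3756 higher in blood (29.7%) and 3847 lower (30.4%). The direction was the same in all 5 lines for 6026 of the called genes, and TPM ranges of the groups did not overlap for 5163 of them. Over all tested genes 48.6% had ranges that did not overlap, 12.9% with blood above and 35.8% with endothelium above. Against a fold of 2 rather than against no change, 1787 genes were higher (14.1%) and 1943 lower (15.4%). Past a log2 fold change of 4, a 16-fold difference, there were still 614 higher and 713 lower genes. The even split depends on the scaling: limma on log2(TPM + 1) put 32.7% of its calls higher in blood, against 49.4% here, and moved the median over all genes from -0.03 to -0.34 on the log2 scale. A gene within about 0.3 of 0 therefore has no settled direction, and no call of a gene named here was reversed under that scaling.

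**Figure D2:**
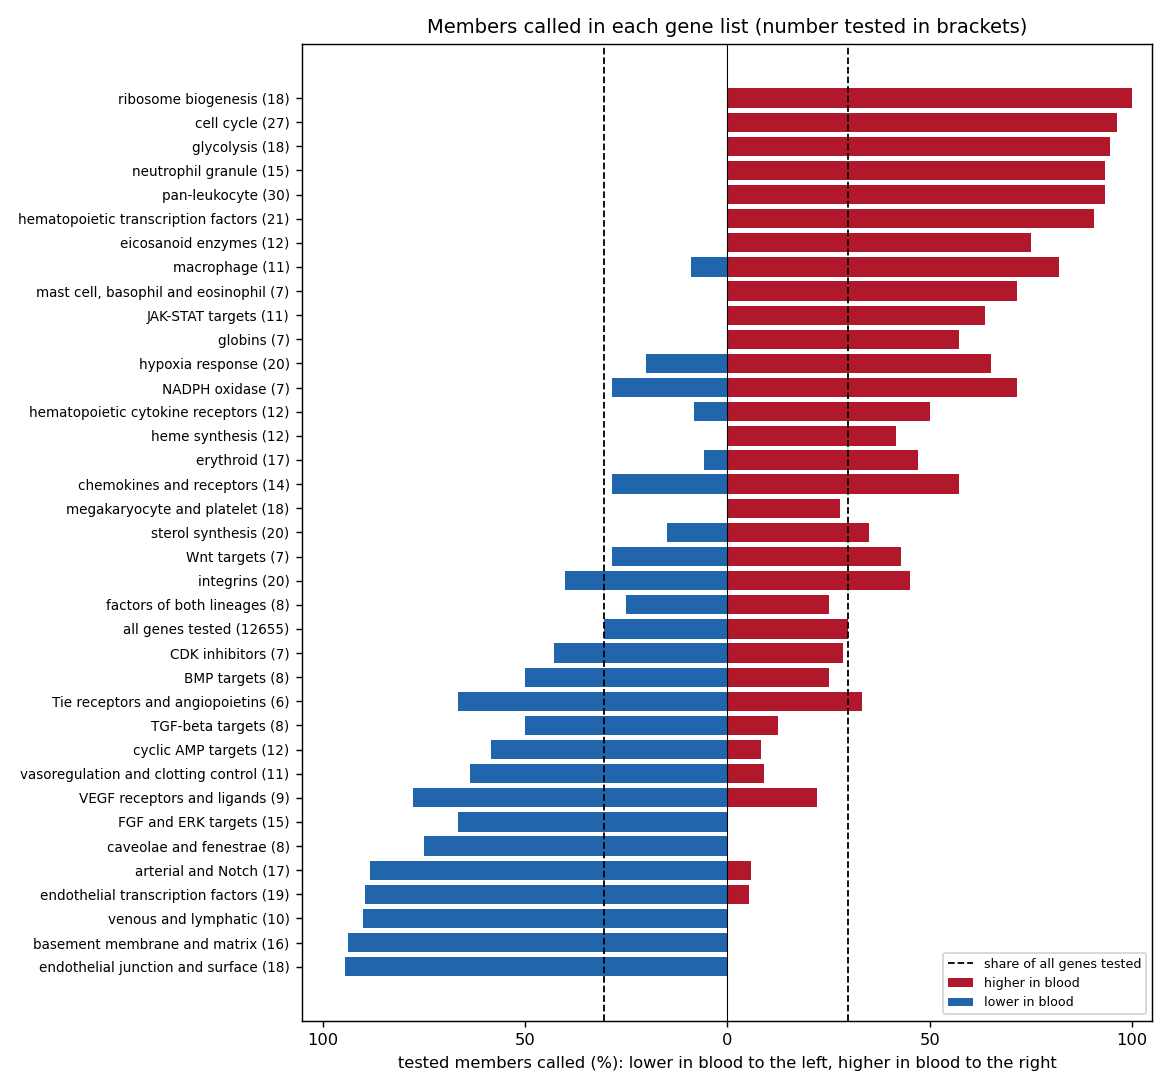
Percent of the tested members of gene lists that were higher in blood (to the right) or lower (to the left), with the number tested in brackets. Dashed lines mark the shares of all tested genes. Members that did not pass are not drawn, and some lists, such as antigen presentation, are left out. Endothelial lists are nearly all lower (17 of 18 junction and surface genes), leukocyte lists nearly all higher (28 of 30), and cell cycle (26 of 27) and ribosome biogenesis (18 of 18) higher.

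The largest rises were leukocyte genes at or near 0 in endothelium. Plac8, a small cysteine-rich protein of myeloid cells, was at 86.9, 70.2, 1014, 429.8 and 194 TPM in blood and at 0 in all 5 endothelial libraries, at least 10877-fold higher when endothelium is set at 3 counts over the group. On the same floor the chemokine receptor Ccr1 was at least 2682-fold, the myeloid receptor Clec5a at least 1942-fold and the interferon-induced Ifitm6 at least 1278-fold higher, each with 0 in every endothelial library. Mpo, the myeloperoxidase of neutrophil granules, was at 281, 873, 2768, 736 and 765 TPM in blood and at 0.261, 0, 0.721, 0.86 and 0.281 in endothelium (log2 fold change 11.76 ± 1.01 SE, adjusted p = 0.000219). The same group held Emr1, the F4/80 antigen of macrophages, at 11.4 to 133 TPM in blood, Rab44 at 42.0 to 176, Tifab at 17.98 to 128 and Ifitm1 at 2478 to 5367, against 0 to 0.021, 0 to 0.083, 0 to 0.022 and 0.269 to 3.10 in endothelium.

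The largest falls were in genes of varied function. Nts, which encodes the peptide neurotensin, was at 79.0, 29.7, 739, 974 and 343 TPM in endothelium and at 0 to 0.135 in blood (log2 fold change -12.02 ± 0.34 SE, adjusted p = 2.15e-05). Kcnq1, a potassium channel gene, was at 29.1, 30.4, 161, 47.9 and 74.0 TPM in endothelium and at 0 to 0.031 in blood (-12.66 ± 0.49, adjusted p = 4.26e-05). Nnmt, a nicotinamide methyltransferase gene, was at 0 in all blood libraries and at least 868-fold higher in endothelium, at 65.8, 87.0, 71.0, 18.1 and 40.4 TPM. Lyve1, the hyaluronan receptor of lymphatic and embryonic endothelium, reached 1367, 2171, 1816, 1803 and 2802 TPM in endothelium and 0.031 to 3.26 in blood. Stc1 (111 to 395 TPM in endothelium), the protease gene Prss23 (137 to 451), Psg22 (29.1 to 378), the matrix gene Tnc, Gpr116 (458 to 916) and the protocadherin gene Pcdh17 (27.4 to 64.1) completed the 10 largest falls.

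Promoters were searched on both strands for short motifs of the factors that divide the fates. For single genes the search covered the 250 bases before each start and the PU.1, ETS, GATA, Runx and Sox motifs. Searched were 38 genes that passed the test, had the largest differences or encode fate factors, and have a promoter in the RefSeq table (GRCm38.p6). Of these, 7 held one of these motifs, and the 6 shown had the largest fold changes in their direction. The gene not shown also bears a PU.1 motif. The 38 genes have 58 promoters in that table, and a gene with several starts is shown at a single start. The stretch shown for Erg belongs to a start inside the gene, which spans 95359169 to 95586593 on the minus strand. Capitals mark GAGGAAGT for PU.1, TGTGGTTT or its reverse complement AAACCACA for Runx, and AGATAAG or its reverse complement CTTATCT for GATA, each with 25 bases on either side, 5′ to 3′ on the gene's strand.
Clec5a, higher in blood, chr6:40585899-40585956, minus strand, Runx motif from 126 bases before the start: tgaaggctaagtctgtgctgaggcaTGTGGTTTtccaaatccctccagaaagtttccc
Mpo, higher in blood, chr11:87793535-87793592, plus strand, PU.1 motif from 224 bases before the start: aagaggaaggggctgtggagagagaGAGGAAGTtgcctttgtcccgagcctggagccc
Runx2, higher in blood, chr17:44814677-44814734, minus strand, Runx motif reversed from 82 bases before the start: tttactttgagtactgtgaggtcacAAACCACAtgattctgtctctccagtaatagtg
Nts, lower in blood, chr10:102490518-102490574, minus strand, GATA motif from 131 bases before the start: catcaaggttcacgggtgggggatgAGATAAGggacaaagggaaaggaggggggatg
Prss23, lower in blood, chr7:89527307-89527364, minus strand, Runx motif from 152 bases before the start: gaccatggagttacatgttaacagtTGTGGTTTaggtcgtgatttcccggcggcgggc
Erg, lower in blood, chr16:95459421-95459477, minus strand, GATA motif reversed from 104 bases before the start: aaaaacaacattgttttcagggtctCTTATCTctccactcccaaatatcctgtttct
Matches stood in genes of both directions: Prss23, at 0 to 0.245 TPM in blood, holds the same Runx letters as Clec5a, at 12.1 to 70.7. Runx2, a Runx factor named for its promoter, was at 2.24 to 5.70 TPM in blood and 0.087 to 1.14 in endothelium.

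Across the table, over 250 bases before to 50 after each start, the motifs were rare in both directions. The PU.1 letters were in 4.03% of 3649 promoters of genes higher in blood, 2.97% of 3743 promoters of genes lower in blood and 3.27% of the 12283 promoters of tested genes. For GATA the shares were 2.38%, 1.63% and 2.01%, and for Runx 1.43%, 0.989% and 1.2%. An ETS motif that shares GGAAGT with the PU.1 letters, ACCGGAAGT, was in 1.92%, 2.22% and 2.14%. A Sox motif, AACAATGG, was in 0.713%, 0.534% and 0.602%, and the cyclic AMP element TGACGTCA in 2.74%, 2.67% and 2.92%. The C/EBP letters TTGCGCAA were in 0.356%, 0.214% and 0.301%, the HIF letters TACGTGC in 1.1%, 0.801% and 0.961%, and the TCF/LEF letters ATCAAAGG in 0.74%, 0.668% and 0.692%. These are letter matches in a fixed window, and no occupancy was measured.

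Receptors for vessel growth signals were among the clearest endothelial genes. Of 9 genes of VEGF receptors and ligands, 7 were lower in blood and 2 higher (median log2 fold change -4.93, against -0.03 over all genes). Kdr, the main VEGF receptor, was at 40.9, 45.6, 13.6, 3.62 and 4.76 TPM in blood and at 719.9, 695, 513, 711 and 785 in endothelium (log2 fold change -5.22 ± 0.83 SE, adjusted p = 0.00222). All 5 endothelial libraries lay above all 5 blood libraries, and within blood the ES-derived lines kept the most. Flt4, the VEGF-C receptor, was at 0 to 2.59 TPM in blood and 305 to 392 in endothelium, the co-receptor Nrp1 at 0.333 to 1.24 and 164 to 298, and Nrp2 at 0.75 to 13.3 and 108 to 135. Ligands divided. Vegfa was at 33.8, 33.9, 19.05, 40.3 and 34.3 TPM in blood and 1.37, 1.47, 1.89, 1.97 and 2.48 in endothelium (4.55 ± 0.30, adjusted p = 0.000104), and Vegfb at 11.1 to 34.4 and 7.01 to 10.7. Vegfc, at 0.899 to 7.78 TPM in blood and 72.0 to 129 in endothelium, and Pgf, at 2.63 to 18.8 and 20.3 to 97.1, were lower in blood; both were named outside the rule.

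In the Tie system the receptors were lower in blood and the ligands divided. Tie1 was at 61.4 to 152 TPM in blood and 673 to 964 in endothelium, Tek, the angiopoietin receptor, at 2.73 to 17.1 and 96.2 to 157, and Ptprb, a phosphatase that acts on Tek, at 0.01 to 0.945 and 32.3 to 67.1. Angpt2, the ligand that endothelium itself stores, was at 46.6 to 978 TPM in endothelium, highest in M5, and 0.26 to 1.26 in blood. Angpt1, the activating ligand, was higher in blood at 21.99, 48.8, 6.44, 19.05 and 27.1 TPM, against 0.62, 0.097, 0.784, 1.98 and 0.801 (log2 fold change 5.27 ± 0.93 SE, adjusted p = 0.00343). 4 of the 6 genes were lower and 2 higher, the second rise being Angptl2, whose call was lost without FL10, FL4, RB3.6.5 or RB4.6.9 (adjusted p 0.0643 to 0.109).

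Junction and surface genes fell almost as a block, 17 of 18 (median -3.26). Pecam1 fell by less than that median: it was at 190.0, 179.7, 259, 103 and 129 TPM in blood and 2011, 1323, 1752, 1661 and 1364 in endothelium (log2 fold change -2.89 ± 0.24 SE, adjusted p = 0.000211). The adhesion gene Mcam was at 5.51 to 14.49 TPM in blood and 1249 to 1820.2 in endothelium, and Robo4, a guidance receptor of vessels, at 0 to 3.38 and 337 to 504. Cldn5, a tight junction claudin, depended strongly on the line in endothelium, at 1043, 236, 17.1, 5.12 and 4.36 TPM. The ES-derived lines held the most, and FL10 held under 5 TPM. Cd34, a surface sialomucin of progenitors and vessels, did not pass: it was at 259, 443, 52.9, 70.4 and 184 TPM in blood and 742, 696, 4.52, 11.8 and 45.3 in endothelium, higher in endothelium in the ES-derived lines and higher in blood in M5, FL4 and FL10.

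Of 19 endothelial transcription factors, 17 were lower in blood (median -3.60). The SoxF factor Sox18 was at 594 to 1077 TPM in endothelium and 0.073 to 12.4 in blood (log2 fold change -8.87 ± 1.42 SE, adjusted p = 0.0023), and endogenous Sox17 at 57.3 to 310.0 and 0 to 3.38. Sox7 varied widely between lines, at 100, 169, 0.209, 6.96 and 67.0 TPM in endothelium, with almost none in M5. Erg, an ETS factor of vessel identity, was at 52.9 to 283 TPM in endothelium and 3.95 to 35.4 in blood. Klf2 was the 1 member higher in blood (0.89 ± 0.25, adjusted p = 0.0201), a call lost without FL10 (adjusted p 0.0504) or FL4 (0.0666), and Hhex did not pass, at 27.8 to 59.5 TPM in blood and 47.1 to 85.4 in endothelium.

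Notch and arterial genes showed some of the largest falls, 15 of 17 with a median of -5.19. Dll4, the Notch ligand of arteries and sprout tips, was at 407, 336, 677, 369.7 and 475 TPM in endothelium and 5.42, 0.493, 0.125, 0.062 and 0.021 in blood (log2 fold change -10.23 ± 1.50 SE, adjusted p = 0.00161). Notch4 was at 242 to 441 TPM in endothelium and 1.08 to 3.49 in blood, the Notch target Hey1 at 77.3 to 213 and 0 to 0.52, and Efnb2, the ephrin of arteries, at 126 to 272 and 0.565 to 3.21. Cxcr4, the receptor for the chemokine SDF-1, belonged to endothelium here as well, at 645, 234, 276, 144 and 161 TPM against 5.27 to 14.3 in blood. The ligand Jag2 was called higher in blood (1.55 ± 0.49, adjusted p = 0.0321), but not without FL10 (adjusted p 0.0866), FL4 (0.0591) or RB3.6.5 (0.0701).

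Venous and lymphatic genes were lower in blood together with the arterial ones. Ephb4, the ephrin receptor of veins, was at 85.3 to 172 TPM in endothelium and 1.07 to 4.89 in blood, and Stab2, a scavenger receptor of sinusoids, at 191 to 580.4 and 0.01 to 1.06 (log2 fold change -10.56 ± 1.25 SE, adjusted p = 0.000723). With Flt4, Nrp2 and Lyve1 they were among the 9 of 10 members lower in blood, with 0 higher. Bulk libraries do not show whether Dll4 and Ephb4 were in the same cells.

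Caveolae and basement membrane went with endothelium. Cav1, the coat protein of caveolae, was at 293 to 1027 TPM in endothelium and 0.229 to 10.9 in blood, Ehd2 at 71.9 to 285 and 0.802 to 3.81, and the lipase anchor Gpihbp1 at 147 to 327 and 0 to 7.23. Among 16 matrix genes 15 were lower (median -5.80), and their summed level was 19570.1, 15414, 16794, 19149.9 and 19537 TPM in endothelium against 1178, 618, 226, 178 and 237 in blood. Col4a1, a collagen IV chain, was at 3359, 3010.3, 3260.1, 4658 and 4733 TPM in endothelium and 60.1, 32.9, 3.43, 5.24 and 5.60 in blood (log2 fold change -8.09 ± 1.07 SE, adjusted p = 0.0011). The laminin chain Lama4 and the linker Nid1 varied by line in endothelium, Lama4 at 64.0, 53.8, 6.67, 1.35 and 12.4 TPM and Nid1 at 361, 370.3, 27.98, 97.5 and 114. Blood from the ES-derived lines kept the most Col4a1.

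Of 11 genes that control vessel tone and clotting, 7 were lower in blood, 1 was higher and 3 did not pass (median -3.93). Nos3, the endothelial nitric oxide synthase, was at 85.1 to 183 TPM in endothelium and 0.208 to 4.31 in blood, and Procr, the protein C receptor, at 294 to 892 and 1.55 to 25.2 (log2 fold change -5.59 ± 0.50 SE, adjusted p = 0.000265). The plasminogen activator Plat was at 44.7 to 287 TPM in endothelium and 0 to 0.683 in blood, and Edn1, endothelin, at 15.8 to 167 and 0.031 to 2.47. Ptgs1, cyclooxygenase 1, was the 1 rise, at 44.7 to 143 TPM in blood and 0.591 to 5.34 in endothelium. Vwf, von Willebrand factor of endothelium and platelets, did not pass and was highest in blood from the ES-derived lines, at 573, 173, 13.4, 6.68 and 1.93 TPM against 2.13, 0.603, 58.3, 2.63 and 0.187 in endothelium. Without M5 it passed as higher (adjusted p 0.0435).

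Hematopoietic transcription factors were the counterpart: 19 of 21 were higher in blood and 0 lower (median 4.69). Spi1, which encodes PU.1, was at 204, 259, 465, 287 and 373 TPM in blood and 0.185, 0.075, 0.962, 0.28 and 0.146 in endothelium (log2 fold change 10.61 ± 0.50 SE, adjusted p = 5.59e-05). Cebpe, the factor of late granulocytes, was at 83.3, 77.4, 229.9, 73.9 and 48.2 TPM in blood and at most 0.063 in endothelium, and Runx3 at 8.401, 25.5, 0.575, 34.5 and 21.9 and at most 0.176. Runx1, the factor that blood formation from endothelium needs and named outside the rule, was at 51.4 to 92.5 TPM in blood and 2.97 to 22 in endothelium (3.51 ± 0.44, adjusted p = 0.000885). Of the erythroid and megakaryocytic factors, Klf1 was at 21.4, 5.73, 19.04, 69.1 and 23.5 TPM in blood and Nfe2 at 627, 302, 127, 225 and 242, both highest in endothelium in M5 (1.43, 0.118, 46.0, 3.45 and 0.218 for Nfe2). Gata1 was called at 7.21 ± 1.98, a call lost without FL10, RB3.6.5 or RB4.6.9 (adjusted p 0.0671, 0.0504 and 0.0611), with 323, 103, 37.8, 102 and 47.0 TPM in blood and 0.403, 0.054, 33.8, 3.18 and 0.156 in endothelium. Cbfb, the partner of the Runx factors, did not pass, at 12.1 to 59.9 TPM in blood and 74.3 to 97.8 in endothelium, but passed as lower without RB3.6.5 (adjusted p 0.0251).

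**Figure D3:**
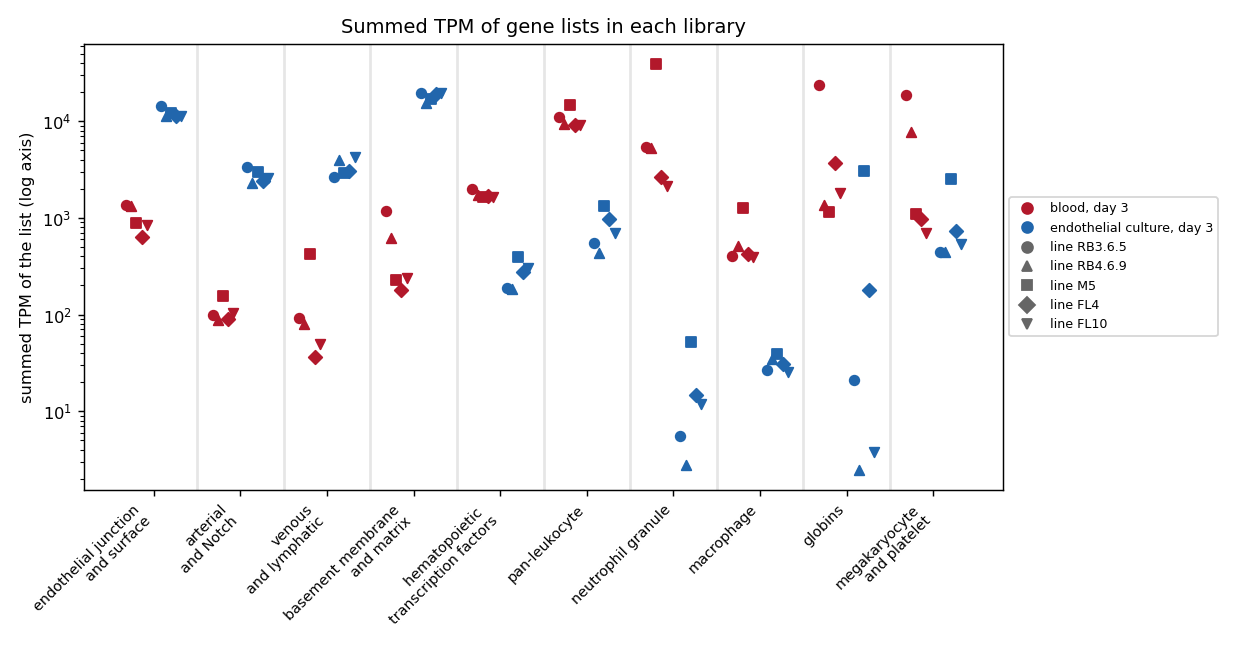
Summed TPM of the members of 10 gene lists in each library on a log axis, blood beside endothelium, 1 point per line. Pan-leukocyte genes summed to 9071 to 14592 TPM in blood and 431 to 1318 in endothelium, while globins and platelet genes spread widely between lines in both.

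Pan-leukocyte genes rose as a group, 28 of 30 with a median of 7.85. Coro1a, an actin regulator of leukocytes, was at 991, 936, 1371, 1128 and 1184 TPM in blood and 2.07, 0.43, 2.13, 1.98 and 0.541 in endothelium (log2 fold change 10.23 ± 0.49 SE, adjusted p = 5.59e-05). The exchange factor Vav1 was at 130.02 to 155 TPM in blood and 0.129 to 2.09 in endothelium, the GTPase Rac2 at 175 to 417 and 0.343 to 2.88, and the phosphatase Ptpn6 at 209.9 to 489 and 0.247 to 3.7. Itgb2, the beta chain of leukocyte integrins, was at 139 to 384 TPM in blood and, in endothelium, highest in M5 at 0.305, 0.054, 9.19, 1.57 and 0.822.

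Several leukocyte signalling genes were nonetheless expressed in endothelium. Lcp2, the adaptor SLP-76, was at 148, 138, 106, 62.1 and 61.1 TPM in blood and 80.0, 34.9, 168, 184 and 102 in endothelium and did not pass (0.35 ± 0.58, adjusted p = 0.625). Hcls1, a cortactin relative of blood cells, was called higher in blood but by a small factor, at 204, 294, 359, 306 and 355 TPM against 143, 188, 246, 173 and 185 (1.09 ± 0.13, adjusted p = 0.000813). Inpp5d, the phosphatase SHIP1, was at 114, 104, 97.4, 97.6 and 88.9 TPM and 56.8, 56.4, 90.7, 72.8 and 82.3 (0.89 ± 0.24, adjusted p = 0.0176), a call lost without RB4.6.9 (adjusted p 0.0628). Endothelial cultures with under 0.04 TPM of Ptprc thus carried these 3 messages at 34.9 TPM or more, and in the eHB lines Hcls1 was at 0.022 to 0.242, Lcp2 at 0 to 0.232 and Inpp5d at 0.055 to 5.01. Cd53, a leukocyte tetraspanin, also did not pass; it is below the level at which the naming rule prints such genes and was named after its values were seen, at 6.36 to 68.8 TPM in blood and 6.41 to 21.8 in endothelium.

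Granule genes of neutrophils rose in 14 of 15 tested members (median 10.79, or 10.46 with groups at 0 set to the floor). Their sum was 5438, 5316, 38804, 2621 and 2115 TPM in blood and 2.79 to 51.4 in endothelium, and M5 blood was far above the others. S100a9, a calcium-binding alarmin of neutrophils, was at 1947, 1593, 15583, 469.8 and 269.8 TPM in blood and at most 1.69 in endothelium (log2 fold change 11.65 ± 1.88 SE, adjusted p = 0.00237). Mmp8, the neutrophil collagenase, was at 5.35, 11.6, 169, 61.9 and 26.5 TPM and Ms4a3, a gene of granulocyte precursors, at 21.4, 72.4, 308, 52.3 and 39.7. Without M5 the list still had 14 members higher.

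Macrophage and mast cell genes were higher in blood as well. Csf1r, the receptor for the macrophage growth factor, was at 20.96, 32.5, 138, 31.4 and 15.9 TPM in blood and 0.033 to 0.395 in endothelium (log2 fold change 8.62 ± 0.88 SE, adjusted p = 0.000406), and the Fc receptor gene Fcgr1 at 3.96 to 18.02 and at most 0.022. Of 11 tested macrophage genes 9 were higher and 1 was lower: Mertk, a receptor for dying cells, at 3.38 to 16.4 TPM in endothelium and 0.072 to 0.951 in blood. Without M5, 2 were lower. Mast cell carboxypeptidase Cpa3 was at 15.96, 39.4, 249.9, 58.9 and 81.2 TPM in blood, and Hdc, which makes histamine, at 54.6, 115, 362, 57.9 and 49.5, against 0.032 to 3.07 and 0.85 to 2.56 in endothelium. Gzmb, granzyme B, was highest in blood from the fetal liver lines, at 2.25, 3.40, 0.47, 69.5 and 278 TPM. The mast cell list had 5 of 7 members higher, and 2 after all libraries were thinned to the depth of the shallowest.

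Effector enzymes followed. Alox5ap, which activates 5-lipoxygenase, was at 896, 695, 1334, 699 and 667 TPM in blood and 2.29 to 16.95 in endothelium (log2 fold change 7.37 ± 0.41 SE, adjusted p = 7.26e-05), and the thromboxane synthase gene Tbxas1 at 219, 69.8, 21.7, 48.4 and 43.6 and 0.114 to 0.415. 9 of 12 eicosanoid enzymes were higher and 0 lower. Among NADPH oxidase genes the cytosolic subunit Ncf1 (192 to 389.5 TPM in blood, 2.08 to 2.49 in endothelium) rose with Cybb, the catalytic subunit of phagocytes (3.26 to 12.6 and 0.031 to 0.104). The other membrane subunit, Cyba, was not silent in endothelium and varied there by line, at 69.7, 6.72, 0.303, 109 and 4.85 TPM. The 2 members that fell, Nox4 and Duox2, catalytic subunits of other oxidases, were at 0 in all blood libraries and at 1.02 to 10.1 and 0.208 to 1.82 TPM in endothelium. After all libraries were thinned to the depth of the shallowest, 1 member was called lower. Nox4 and Duox2 lie outside the naming rule and were named after their values were seen.

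Antigen presentation was split between the common and the inducible parts. B2m, the light chain of class I molecules, was at 554, 520.1, 1226, 604 and 692 TPM in blood and 653, 483, 715, 831 and 693 in endothelium and did not pass (0.43 ± 0.21, adjusted p = 0.123). The immunoproteasome subunit Psmb8 was at 8.85 to 27.4 TPM in blood and 0.044 to 0.551 in endothelium, the peptide transporter Tap1 at 20.6 to 44.4 and 1.68 to 13.96, and the class II chaperone Cd74 at 81.5, 38.7, 291, 68.8 and 60.2 and 0 to 0.394. 7 of 9 tested members were higher.

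Receptors for the cytokines of the blood medium did not move together. Flt3, the receptor for Flt3 ligand and named outside the rule, did not pass, at 1.34, 1.01, 2.83, 5.72 and 8.70 TPM in blood and 4.44, 0.915, 0.481, 1.33 and 1.31 in endothelium (1.63 ± 0.73, adjusted p = 0.0957). It passed as higher in blood without RB3.6.5 (adjusted p 0.0204), in the 3 tissue-derived lines alone (0.00278) and with DESeq2 (0.0157). Kit, the SCF receptor, was lower in blood, at 18.4, 82.1, 47.5, 45.5 and 55.2 TPM against 133, 99.7, 138, 179 and 204 in endothelium (log2 fold change -1.32 ± 0.29 SE, adjusted p = 0.0088). Il3ra, the specific chain of the IL-3 receptor, did not pass, at 55.9, 33.4, 31.9, 37.1 and 73.3 TPM and 58.9, 49.5, 40.6, 62.3 and 77.4 (0.03 ± 0.21, adjusted p = 0.911). Csf2rb2, the mouse IL-3 receptor's own beta chain, was higher, at 251, 152, 296, 169.7 and 177 TPM and 19.2, 51.8, 15.1, 18.5 and 32.8 (3.45 ± 0.52, adjusted p = 0.00179). Csf3r, for the granulocyte growth factor, was at 11.4 to 103 TPM in blood and 0.108 to 0.575 in endothelium. Il2rg, the chain shared by several interleukin receptors, was at 31.3, 40.4, 90.1, 64.3 and 62.5 TPM in blood and 27.6, 9.47, 113, 99.6 and 48.9 in endothelium and did not pass.

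Integrin genes went in both directions. Of 20 tested, 9 were higher in blood and 8 lower, where 29.7% of all tested genes were higher and 30.4% lower. The leukocyte alpha chains Itgal (87.1 to 231 TPM in blood, 0.011 to 2.99 in endothelium) and Itgam (22.4 to 79.6 and 0 to 0.093) rose with Itgb7 (25.5 to 136 and 0.022 to 0.585). The laminin-binding chain Itga3 was at 231 to 911 TPM in endothelium and 0.094 to 2.39 in blood, the collagen-binding Itga2 at 56.0 to 186 and 0.218 to 12.7, and the common beta chain Itgb1 at 1145 to 1662 and 133 to 218 (log2 fold change -2.65 ± 0.22 SE, adjusted p = 0.000188). Chemokines divided likewise: Ccl9 was at 61.0 to 208 TPM in blood and 0.282 to 0.56 in endothelium, while Ccl2, which attracts monocytes, was at 1029.8, 1938, 837, 2318 and 1779 TPM in endothelium and 0 to 16.7 in blood.

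Of 8 factors that both lineages use, 2 were higher in blood, 2 lower and 4 did not pass (median 0.57), shares near the 29.7% and 30.4% of all tested genes. The higher count was 4 without the block on line and 4 with DESeq2. Endogenous Lmo2, an adaptor of blood and endothelial complexes, was at 132, 225, 139, 78.5 and 81.8 TPM in blood and 238, 194, 147, 78.9 and 98.6 in endothelium (0.18 ± 0.12, adjusted p = 0.232). Tal1, its partner, was at 136, 102, 41.4, 98.9 and 78.5 TPM and 43.0, 47.1, 71.3, 54.7 and 67.3 (0.97 ± 0.41, adjusted p = 0.0798), lower in blood in M5 and higher in the other 4 lines. Leaving out M5 brought Tal1 past the threshold (adjusted p 0.023) and the count of higher members from 2 to 4. Gata2 was higher in blood, at 43.8, 76.0, 57.0, 83.0 and 70.8 TPM against 18.5, 25.9, 30.4, 44.1 and 42.6 (1.46 ± 0.19, adjusted p = 0.000976), and Lyl1, a relative of Tal1, at 102 to 255 against 32.3 to 72.8. The ETS factor Fli1 was lower, at 45.02, 47.6, 21.4, 24.7 and 24.02 TPM against 144, 137, 109, 165 and 148 (-1.79 ± 0.28, adjusted p = 0.00199), and Mecom, a stem cell factor, at 0 to 0.449 against 21.3 to 41.5.

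Red cell and platelet genes varied widely between lines in both fates. Globins summed to 23432, 1368, 1141, 3679.5 and 1808 TPM in blood and 20.97, 2.49, 3044, 179 and 3.79 in endothelium. M5 endothelium was above M5 blood, and RB3.6.5 blood was the highest of all 10 libraries. Of 7 tested globins 4 were called higher in blood, but 1 without FL10, FL4, RB3.6.5 or RB4.6.9 in turn and 7 without M5. The count was 1 without the block on line and 7 with DESeq2 or with limma on log2(TPM + 0.1). Hbb-bt, an adult beta globin, was at 3034, 940.4, 445, 819.6 and 907 TPM in blood and 1.83, 0.065, 49.8, 3.18 and 0.156 in endothelium (log2 fold change 9.82 ± 1.86 SE, adjusted p = 0.00458). The embryonic Hbb-bh1 was at 4815, 135, 182, 878 and 294 TPM and 7.03, 0.291, 455, 60.1 and 1.799, and the embryonic Hba-x at 2918, 43.1, 47.2, 331 and 44.5 and 1.27, 0.172, 402, 32.8 and 0.447. Near-identical copies (Hba-a1 with Hba-a2, Hbb-bt with Hbb-bs) share reads, and their split is uncertain. The part of depth, of the Lars2 level and of the marker levels of M5 endothelium in these ranges was not tested.

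Erythroid genes other than globins gave 8 of 17 higher, 4 without FL10 and 3 in the 3 tissue-derived lines alone, but 11 without M5 and 13 with DESeq2. Car2, carbonic anhydrase, did not pass, at 77.8, 133, 124, 157 and 53.3 TPM in blood and 114, 139, 169, 71.1 and 129.8 in endothelium. Aqp1, a water channel of red cells and vessels, was the 1 lower member, at 2.51, 3.12, 1.13, 10.03 and 2.32 TPM and 95.7, 29.7, 3.53, 52.4 and 76.0. Heme synthesis rose in 5 of 12 members, against 29.7% of all tested genes. Cpox was among them, at 27.3 to 96.6 TPM in blood and 4.17 to 21.4 in endothelium. With limma on log2(TPM + 1) that count was 3.

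Platelet genes were highest in blood of the ES-derived lines. Their sum was 18486, 7651, 1101, 981 and 689 TPM in blood and 441, 438, 2548, 728 and 543 in endothelium, with the ES-derived lines highest in blood and M5 highest in endothelium. Pf4, a platelet chemokine, was at 6599, 2907, 289, 183 and 56.8 TPM in blood and 5.15, 6.00, 994, 20.6 and 14.1 in endothelium and did not pass (4.41 ± 2.36, adjusted p = 0.15), though it did with DESeq2 (adjusted p 0.00378) and with limma on log2(TPM + 1) (0.0462) and log2(TPM + 0.1) (0.0442). Itga2b, platelet integrin and early marker of blood formation, was at 2984, 1141, 397, 393 and 358 TPM and 51.3, 57.0, 459, 110.0 and 66.2 (3.16 ± 1.03, adjusted p = 0.0358), a call lost without FL10, FL4 or RB4.6.9 (adjusted p 0.0854, 0.0629 and 0.111). In all, 5 of 18 members passed, all higher in blood, a share near the 29.7% of all tested genes that were higher. That count was 1 without FL10, 2 without FL4, 3 without RB3.6.5, 1 without RB4.6.9 and 9 without M5. It was 10 without the block on line, 11 with DESeq2, 9 with limma on log2(TPM + 1) and 10 on log2(TPM + 0.1). Without RB3.6.5, 1 member was lower. Itgb3, the partner of Itga2b, was higher in blood only in the ES-derived lines, at 989.9, 423, 55.9, 59.5 and 51.5 TPM in blood and 111, 174, 405, 299 and 341 in endothelium. In the 3 tissue-derived lines alone 1 member was higher and 4 were lower, among them Clec1b and Itgb3 at log2 fold changes of -2.45 and -2.33.

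Related genes with a leukocyte form and a general form moved in opposite directions in most pairs examined. Among 19 pairs of related genes, 18 leukocyte members were higher in blood, 14 general members were lower, and 13 pairs did both, where 29.7% of all tested genes were higher and 30.4% lower. The pairs were drawn up with results of these data in view, so these counts are a description. The general plastin Pls3 fell (log2 fold change -4.30 ± 0.31) while the leukocyte plastin Lcp1 rose (3.03 ± 0.44). Kindlins behaved alike, with Fermt3 at 4.78 ± 0.97 and Fermt2 at -6.63 ± 0.60, and so did Dock2 (10.15 ± 0.80) and Dock1 (-4.85 ± 0.29), and the Hem subunits Nckap1l (7.52 ± 0.26) and Nckap1 (-5.04 ± 0.91). Rac2 rose by 8.70 on the log2 scale, and Rac1 did not pass, at 198 to 358 TPM in blood and 476 to 551 in endothelium, though it passed as lower without RB3.6.5 (adjusted p 0.00264). The summed level of that pair was 495 to 630 TPM in blood and 477 to 552 in endothelium.

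**Figure D4:**
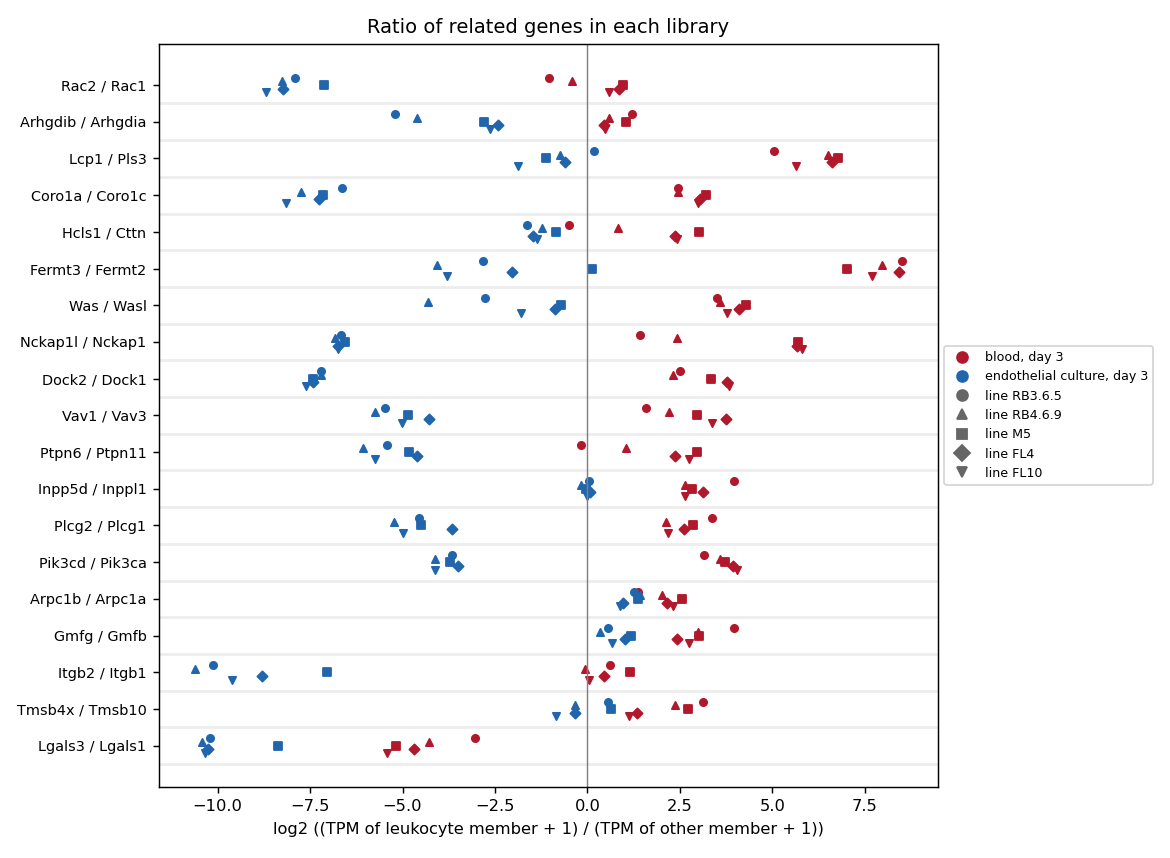
Log2 ratio of the leukocyte member to the general member, (TPM + 1) over (TPM + 1), in each library for 19 gene pairs, blood and endothelium in separate colours. The ranges of the fates do not overlap in 18 pairs; the exception is Arpc1b over Arpc1a.

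The ranges of the ratio did not overlap between the fates in 18 of 19 pairs. Among single genes 48.6% of all tested had TPM ranges that did not overlap. That share is of another measure, and none was computed for ratios of other genes. In Lcp1 over Pls3 the ratio ran from 5.06 to 6.77 in blood and from -1.89 to 0.18 in endothelium, on the log2 scale. In Arpc1b over Arpc1a, alternative subunits of the Arp2/3 complex, it ran from 1.36 to 2.56 in blood and 0.89 to 1.42 in endothelium and overlapped. In Tmsb4x over Tmsb10, genes of actin-sequestering proteins, the leukocyte member did not pass (0.23 ± 0.23, adjusted p = 0.413), while Tmsb10 fell (-1.98 ± 0.14, adjusted p = 0.000126). The count of 13 was 10 without FL10, FL4, M5 or RB4.6.9. The call of Coro1c was lost without FL10, FL4, M5 or RB4.6.9 (adjusted p 0.0508 to 0.0776) and that of Cttn without FL10, FL4 or M5 (0.0581 to 0.0653). Vav3 lost its call without the same 3 lines (0.0536 to 0.0622), and Gmfb without RB4.6.9 (0.0542).

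Target genes of the added factors were set beside the media. Cyclic AMP analogue was in the endothelial medium, and 7 of 12 cyclic AMP targets were lower in blood and 1 higher (median -1.59). Over all tested genes 30.4% were lower and 29.7% higher. Crem, a cyclic AMP responsive repressor, was at 10.3, 7.20, 8.91, 6.55 and 6.93 TPM in blood and 105.05, 103, 89.2, 91.0 and 89.9 in endothelium (log2 fold change -3.15 ± 0.19 SE, adjusted p = 8.61e-05), and the phosphodiesterase gene Pde4b at 2.88, 10.9, 3.85, 9.22 and 10.8 and 365, 496, 121, 519.9 and 489. The exception was Rgs2, a brake on G protein signals, at 4.51, 2.62, 36.6, 34.4 and 40.3 TPM in blood and 0.261, 0.56, 0.303, 1.47 and 1.83 in endothelium; without M5, 2 targets were higher. FGF and ERK targets were lower in 10 of 15, with the feedback inhibitor Spry4 at 0.575 to 1.99 TPM in blood and 54.9 to 111 in endothelium. The other 5 did not pass, and without FL4 1 of them was higher. Against a fold of 2, 4 cyclic AMP targets and 6 FGF and ERK targets were lower, where 15.4% of all tested genes were.

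BMP4 was in the endothelial medium, and of 8 BMP targets 2 were higher in blood and 4 lower. Over all tested genes 29.7% were higher and 30.4% lower. Id3 was at 0.581, 0, 0, 0.177 and 0.25 TPM in blood and 123, 142, 32.1, 152 and 172 in endothelium (log2 fold change -9.17 ± 0.68 SE, adjusted p = 0.000149), and the inhibitory Smad6 at 0.627 to 1.98 and 1.44 to 19.7. Id1 and Id2 went the other way: Id1 was at 189.8, 323, 101, 145 and 368 TPM in blood and 37.2, 79.7, 12.7, 43.7 and 76.7 in endothelium (2.66 ± 0.25, adjusted p = 0.000328), and Id2 at 53.9, 56.9, 82.7, 86.2 and 117 and 1.33, 3.85, 0.376, 10.6 and 23 (4.58 ± 0.88, adjusted p = 0.00495). Endothelial M5 held the least Id1, Id2 and Id3 of the endothelial libraries. TGF-beta targets were 4 lower and 1 higher of 8, with the receptor inhibitor in the endothelial medium. Ctgf was at 399 to 671 TPM in endothelium and 0.052 to 5.76 in blood, and Cyr61 at 279 to 563 and 0.166 to 6.89. The ranges of the fates did not overlap in either gene.

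**Figure D5:**
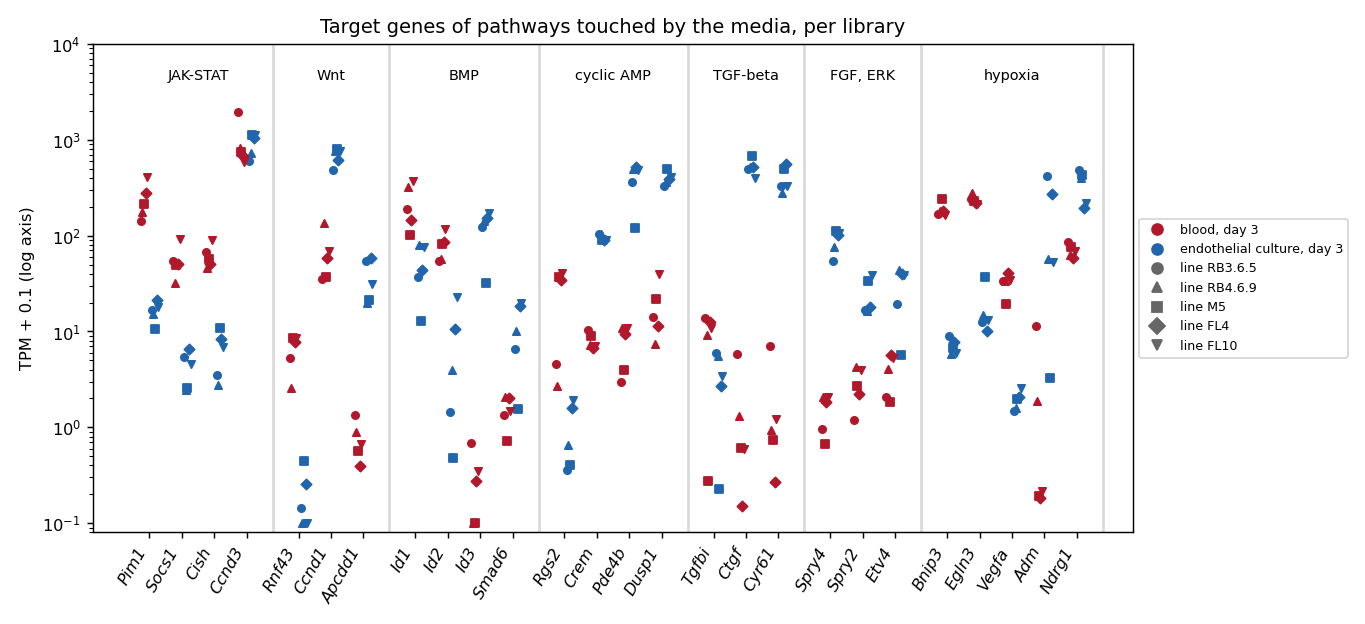
TPM on a log axis of single genes tied to medium components in each library, blood beside endothelium, 1 point per line. Crem and Pde4b are higher in endothelium in all 5 lines, Id1 and Id2 higher in blood and Id3 higher in endothelium, and Vegfa and Bnip3 higher in blood.

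Wnt targets were few at these levels: 7 of 14 could be tested, 3 higher and 2 lower. Over all tested genes the shares were 29.7% higher and 30.4% lower. Rnf43, a Wnt receptor ligase, was at 5.18, 2.48, 8.43, 7.60 and 8.53 TPM in blood and 0 to 0.345 in endothelium, while Ccnd1, cyclin D1, was at 35.6, 136, 37.1, 58.5 and 69.7 TPM in blood and 489.9, 756, 809, 610.5 and 761 in endothelium (log2 fold change -3.11 ± 0.27 SE, adjusted p = 0.000241). Targets of cytokine signalling through JAK and STAT were 7 higher of 11 and 0 lower. Pim1, a survival kinase, was at 143, 177, 215, 279.6 and 408 TPM in blood and 16.8, 15.3, 10.55, 21.4 and 17.9 in endothelium (4.23 ± 0.23, adjusted p = 7.01e-05), and the inhibitors Cish and Socs1 were at 45.3 to 89.2 and 32.3 to 92.6 in blood and 2.66 to 10.9 and 2.36 to 6.52 in endothelium. Bcl2l1, which protects from cell death, did not pass, at 104 to 219 TPM in blood and 59.3 to 173 in endothelium, but passed as higher without M5 (adjusted p 0.0302).

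Low oxygen was used for blood, and 13 of 20 hypoxia genes were higher in blood, 4 lower. Over all tested genes 29.7% were higher and 30.4% lower. Against a fold of 2, 5 hypoxia genes were higher and 2 lower, where 14.1% and 15.4% of all tested genes were. Bnip3, a mitophagy receptor, was at 168, 182, 239, 179 and 165 TPM in blood and 8.77, 5.71, 6.67, 7.69 and 5.91 in endothelium (log2 fold change 5.14 ± 0.16 SE, adjusted p = 2.95e-05), and Egln3, an oxygen sensor that hypoxia induces, at 241, 277, 229.8, 219.7 and 214 and 12.6, 14.7, 37.0, 10.1 and 13.2. The falls were also textbook hypoxia genes: Ndrg1 was at 84.8, 63.0, 76.0, 58.1 and 69.7 TPM in blood and 481, 401, 432, 192 and 221 in endothelium, and Adm, the vasodilator adrenomedullin, at 11.4, 1.78, 0.094, 0.083 and 0.115 and 420.1, 57.1, 3.18, 272 and 53.2. Pfkfb3 was lower (-1.22 ± 0.25, adjusted p = 0.00582), and Bnip3l was lower (-0.62 ± 0.19, adjusted p = 0.0295) but not without FL10, FL4 or RB4.6.9 (adjusted p 0.0866 to 0.107). P4ha1, a collagen hydroxylase, did not pass (-0.02 ± 0.18, adjusted p = 0.922).

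Glycolysis was more uniform. 17 of 18 enzymes and transporters were higher in blood (median 2.76), and their sum was 28739 to 38006 TPM in blood and 8552 to 11594 in endothelium. Members at low levels in endothelium had the largest differences: Hk2 was at 28.8, 81.9, 71.2, 60.5 and 58.0 TPM in blood and 0.86, 0.99, 0.596, 2.68 and 1.90 in endothelium (log2 fold change 5.92 ± 0.46 SE, adjusted p = 0.000163), the lactate exporter Slc16a3 at 119 to 310.0 and 0.343 to 2.19, Aldoc at 58.3 to 92.1 and 0.477 to 1.61, and Pfkl at 251 to 322 and 11.9 to 22.4. Hk1, the hexokinase present in most cells, did not pass, at 249, 101, 109, 127 and 101 TPM in blood and 98.7, 69.9, 223, 143 and 146 in endothelium. In the eHB lines the sum was 14637 to 21528 TPM.

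Blood had higher levels of genes of division and of ribosome assembly. Of 27 cell cycle genes 26 were higher in blood (median 2.60), with Ccnb1, a mitotic cyclin, at 18.7, 109, 69.5, 111 and 72.8 TPM in blood and 9.70, 5.94, 4.90, 19.05 and 11.9 in endothelium (log2 fold change 3.22 ± 0.44 SE, adjusted p = 0.0012). Aurkb, a mitotic kinase, was at 19.3, 79.6, 44.9, 79.5 and 54.6 TPM and 5.25, 3.75, 2.83, 14.1 and 7.48. Tyms, which makes thymidylate, did not pass, at 17.3 to 58.3 TPM in blood and 51.8 to 72.9 in endothelium. The list summed to 626, 2613, 2028, 2927 and 2204 TPM in blood, 691, 512, 518, 985 and 671 in endothelium and 5062, 5083, 4988, 5112 and 4847 in the eHB lines. RB3.6.5 blood was by far the lowest blood library and lay below its own endothelium, at 626 against 691 TPM. The groups therefore overlap in the sum, while each gene is tested within lines. TPM ranges did not overlap in 7 of the 27 genes, with blood above, against 12.9% of all tested genes.

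Ribosome biogenesis rose in all 18 tested members (median 1.801). Fbl, the methyltransferase fibrillarin, was at 160.1, 450.0, 299.9, 468 and 432 TPM in blood, 77.4, 106, 72.9, 118 and 108 in endothelium and 564 to 896 in the eHB lines (log2 fold change 2.23 ± 0.13 SE, adjusted p = 7.4e-05). Wdr12 was at 23.2 to 80.2 TPM in blood and 10.1 to 14.53 in endothelium, and Dkc1, dyskerin, at 22.3 to 116 and 11.1 to 31.98. Of the 7 inhibitors of cyclin-dependent kinases, 2 were higher and 3 lower, against 29.7% and 30.4% of all tested genes. Cdkn2b fell, at 25.2, 7.13, 14.1, 11.6 and 19.96 TPM in blood and 73.2, 97.4, 173, 97.0 and 185 in endothelium (-2.69 ± 0.45, adjusted p = 0.00277). Cdkn1a, p21, did not pass and was abundant in both, at 721, 639, 820.5, 602 and 1019 TPM and 652, 1132, 2158, 913 and 1645, and without RB3.6.5 it passed as lower (adjusted p 0.0195). The call of Cdkn1b was lost without FL10, FL4 or RB4.6.9 (adjusted p 0.118 to 0.137), and that of Cdkn1c without FL10, FL4, RB3.6.5 or RB4.6.9 (0.0598 to 0.0758). Cdkn2a lost its call without FL10 (0.0712) or FL4 (0.0555), and Cdkn2d without RB4.6.9 (0.0689). Without FL10, FL4 or RB4.6.9, 1 inhibitor was lower and 1 higher.

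Sterol synthesis had no common direction. 7 of 20 genes were higher, 3 lower and 10 did not pass (median 0.12), where 29.7% of all tested genes were higher and 30.4% lower. Without FL10 4 were higher, and limma on log2(TPM + 1) gave 3 higher and 8 lower. Mvd, a decarboxylase of the pathway, was higher, at 155 to 327 TPM in blood and 38.9 to 81.6 in endothelium, and Insig1, its feedback regulator, lower, at 47.7 to 67.7 and 123 to 244.

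Few fate differences varied past the threshold with the origin of the line. Earlier medium and the separate column numbers of ES-derived endothelium go with origin and cannot be told apart from it here. A test of the difference between tissue-derived and ES-derived lines called 3 of 12655 genes (0.0237%), and 2005 genes had an unadjusted p under 0.05. DESeq2 called 1048, limma on log2(TPM + 1) called 95, and the count was 0 without FL10, FL4, RB3.6.5 or RB4.6.9 and 12 without M5. Clec1b, a platelet receptor encoded on chromosome 6 (129397297 to 129409335, plus strand, GRCm38), was at 488, 121, 6.58, 4.21 and 0.948 TPM in blood and 23.8, 5.25, 53.2, 17.1 and 6.09 in endothelium. It was higher in blood in the ES-derived lines (log2 fold change 4.99) and lower in the others (-2.45), a difference of -7.41 ± 0.42 SE with adjusted p = 0.0383. Lrrc32, which holds latent TGF-beta at the surface, differed by -5.98, from 1.83 to -4.16 (adjusted p = 0.0383), at 60.2, 52.3, 2.05, 0.665 and 0.771 TPM in blood and 27.8, 18.1, 37.4, 21.9 and 15.1 in endothelium. Scarf1, a scavenger receptor of endothelium, differed by -4.67, from -1.72 to -6.38 (adjusted p = 0.0460), at 30.3, 33.4, 2.05, 1.195 and 1.33 TPM in blood and 147, 149, 179.9, 150.0 and 141 in endothelium. With 2 ES-derived and 3 tissue-derived lines the test recovered 5% of simulated 4-fold differences, so its low count does not show that the origins act alike.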

How the data were processed

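RNA was sequenced from 10 libraries of 5 lines, 1 library per line and fate. The authors deposited RSEM expected counts and TPM for 20314 genes, and the submitters' processing notes name CASAVA 1.8.2, Bowtie 0.12.9, RSEM 1.2.3 and build mm10. How the deposited TPM were renormalised, the annotation and the strand setting are not given in the sources used here. Without strand, reads of overlapping genes cannot be told apart.

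Expected counts were rounded to whole numbers, filtered with filterByExpr, scaled by TMM and tested with edgeR 4.0.16 (R 4.3.3, robust quasi-likelihood F test, line as a block). The same line gave both libraries, so the samples are paired; deviations from the group means correlated with r of 0.125 to 0.327 between the libraries of a line, but for RB3.6.5 the closest library of the other fate was that of M5. The interaction with origin kept the block. P-values set the difference between fates against its spread across lines, with 1 culture per line and fate. On simulated counts for 12549 genes the paired test recovered 21% of 2-fold and 98% of 4-fold changes with 9 false calls, and over 12546 genes the interaction test recovered 0% and 5%. Standard errors are the unshrunk coefficient over the root of F. Floors are 3 counts over a group and cover counting error only.

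The comparison and the gene lists were chosen with earlier results of these data known; the 10 libraries were then taken by their titles. Named genes are the sort markers and introduced factors, the 10 largest differences each way whose groups did not overlap and whose higher group averaged at least 20 TPM, up to 4 called members of each list each way (5 TPM or more), members that did not pass with 50 TPM or more, the gene pairs and the interaction calls; some genes that the rule or the pairs would include are not reported here. Cebpd, Ahsp, Hbb-b1, Hbb-b2 and Mx1 were not matched, and Pkm2 and Cxcr7 were read as Pkm and Ackr3. Of 12655 tested genes 9567 had a promoter in the RefSeq table. Alternatives were DESeq2 1.42.0, its size factors, limma 3.58.1 on log2(TPM + 1) and log2(TPM + 0.1), no block, no count filter, a test against 2-fold, thinning to the shallowest library, leaving out each line, and the 3 tissue-derived lines alone.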

Additional observations from a re-analysis of the deposited data

Results flagged for a closer look

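In a group of 5 libraries, 1 library was counted as standing apart when its gap to the nearest other library was a larger share of the group's range than Dixon's 95% critical value for 5 samples, and chance flags about 1 in 20 groups. Of 90 list sums, 12 in blood and 9 in endothelium met this, and of 363 gene groups of the genes named, 51 in blood and 30 in endothelium did. The sums and the genes whose libraries were listed are given with the value of the library that stands apart, in TPM.

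Blood from RB3.6.5 stood above the others in the summed level of hematopoietic transcription factors (1971), globins (23432), JAK-STAT targets (2768), TGF-beta targets (149.7), mesenchyme and mural genes (90.9), cardiac muscle genes (223) and neural genes (108). Single genes in which it stood above were Adm (11.4), Cldn5 (15.03), Clec1b (488), Dll4 (5.42), Gata1 (323), Hba-x (2918), Hbb-bh1 (4815), Hbb-bt (3034), Hk1 (249), Lama4 (1.30), Nid1 (5.25) and Tbxas1 (219). Blood from M5 stood above the others in the summed level of arterial and Notch genes (157), venous and lymphatic genes (419), neutrophil granule genes (38804), macrophage genes (1271) and antigen presentation genes (1891). Single genes in which it stood above were Bnip3 (239), Cd74 (291), Cebpe (230.0), Cpa3 (249.9), Csf1r (138), Hdc (362), Mpo (2768) and Ms4a3 (308). Blood from FL4 stood above in Aqp1 (10.03) and Klf1 (69.2). Blood from FL10 stood above in Gzmb (278). The low depth and the high Lars2 level of RB3.6.5 blood move with its values, and their part was not tested.

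Endothelium from M5 stood above the others in the summed level of neutrophil granule genes (51.4), heme synthesis genes (416), globins (3044), megakaryocyte and platelet genes (2548) and glycolysis genes (11594). Single genes in which it stood above were Egln3 (37.0), Gata1 (33.9), Hba-x (402), Hbb-bh1 (455), Hbb-bt (49.8), Itga2b (459.5), Itgb2 (9.19), Nfe2 (46.0), Pf4 (994), Scarf1 (179.9) and Vwf (58.3). Endothelium from RB3.6.5 stood above the others in the summed level of endothelial junction and surface genes (14510.0) and hypoxia response genes (1659.9). Single genes in which it stood above were Cldn5 (1043), Cxcr4 (645) and Flt3 (4.44). Endothelium from FL4 stood above the others in the summed level of mesenchyme and mural genes (82.4). It also stood above in Gzmb (1.00). Endothelium from RB4.6.9 stood above the others in the summed level of epithelium genes (4.98).

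By a test of tissue-derived minus ES-derived lines, the fate difference varied in Clec1b (-7.41 on the log2 scale), Lrrc32 (-5.98) and Scarf1 (-4.67). Origin, earlier medium and the column numbers of the endothelial libraries cannot be told apart in it. Blood was below endothelium in all 3 tissue-derived lines in each of these genes.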

How the results depend on the processing

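Of 171 called genes named above, 145 were called in the same direction under every alternative that tested them. The number was 150 with the test against 2-fold left aside. A gene that an alternative left untested was not counted as lost there, so these counts are upper limits. The count of called genes was 6108 to 8300 with 1 line left out, 7758 with no replicate block (7225 shared with the paired fit), 8431 with DESeq2, 7890 with no count filter, 7070 after thinning and 3730 against 2-fold (1787 higher, 1943 lower). Limma on log2(TPM + 1) gave 2485 higher and 5114 lower. The interaction with origin, 3 genes, gave 1 without the block, 2 with DESeq2's size factors, 95 with limma, 1048 with DESeq2 and 0 to 12 with 1 line left out. The 13 gene pairs that moved both ways were 8 against 2-fold and 10 to 15 with 1 line left out, and 12 without the block. Clec1b reversed to -2.45 (log2) in the tissue-derived lines alone. Of 1260 list counts under alternatives 124 moved by over 1.5 times, those of the globin and platelet lists with most settings. The cause of these changes was not tested, except that the 2-fold test asks for more and leaving out a line removes samples. Depth limits genes near 0 in blood, whose libraries are shallower.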

Other observations

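Levels of the leukocyte genes found in endothelial cultures can be set beside the other libraries of the series, as values with no test. Hcls1 was at 51.2 to 57.6 TPM in the 2 yolk sac endothelial libraries, 43.4 to 51.1 in the 2 embryo endothelial libraries, 235 in the single library of hematopoietic stem cells and 143 to 246 in the endothelial cultures. Lcp2 was at 29.3 to 33.2 TPM in yolk sac, 5.63 to 9.11 in embryo, 81.4 in stem cells and 34.9 to 184 in culture. Inpp5d was at 45.3 to 54.3 TPM in yolk sac, 37.1 to 49.2 in embryo, 98.2 in stem cells and 56.4 to 90.7 in culture. Both kinds of endothelium taken from embryos thus held these 3 messages, each below the range of the cultures. Il2rg was at 260.2 to 265 TPM in yolk sac endothelium, above the 9.47 to 113 of the cultures, and at 47.8 to 54.2 in embryo endothelium. Cd53 was at 2.48 to 5.63 and 2.63 to 3.13 TPM in these endothelia.

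Lars2 was at 370.0 to 1148 TPM in day 2 blood, 239 to 901 in the day 3 endothelial cultures and 121 to 850.2 in the eHB lines, so blood from RB3.6.5 on day 3, at 49087, held a level that no other of these libraries came near.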
